A study of Danio rerio with 12 samples.

Results

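Of the 25902 genes in the count table, 58 carry the names of the ephrin, Slit, Robo and netrin guidance systems. They were chosen by name alone, as the genes whose name starts with epha, ephb, efna, efnb, slit, robo or unc5, starts with ntn and a digit, or is dcc. The 58 comprise 9 EphA and 8 EphB receptors, 9 ephrin-A and 4 ephrin-B ligands, 4 Slit ligands, 4 Robo receptors, 5 netrins, Dcc and 6 Unc5 receptors. The prefixes also caught 7 Slitrk genes and unc50, which belong to other families and are described apart from the rest. Names come from the study's list of changed genes for 4 members and from Ensembl for 54. Many are written as the human symbol, and the 20 that share a name with another member are given with their Ensembl identifiers. How reads that fit more than 1 gene copy were divided is not given in the sources used here.

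RNA was sequenced from whole zebrafish at 48 h post-fertilization (hpf) in 4 groups of 3 libraries. These were apc mcr/mcr mutant larvae given 100 nM rapamycin, WT larvae given 100 nM rapamycin, mutant larvae given vehicle (0.1% DMSO) and WT larvae given vehicle, and treatment began at 24 hpf. The mcr allele truncates Apc, a scaffold of the complex that marks beta-catenin for destruction, and rapamycin inhibits mTORC1, a kinase complex that drives growth. Homozygotes were picked by their bent body axis at 24 hpf, so the WT group mixes wild-type with heterozygous larvae, which look alike. Each library was a pool of 20 embryos, and the study names 3 separate clutches. P-values therefore reflect the spread among 3 pools per group, and an exact permutation test of 3 libraries against 3 cannot go below p = 0.1.

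Eph receptors are receptor tyrosine kinases that bind ephrins on neighbouring cells, and signals pass in both directions, most often parting cells or turning axons away. Ephrin-A ligands are held in the membrane by a lipid anchor and ephrin-B ligands span it. Slits are secreted proteins that repel axons and migrating cells through Robo receptors. Netrins are secreted relatives of laminin that attract axons through Dcc and repel them when an Unc5 receptor takes part. All of these systems pattern the developing nervous system, and several also act in neural crest migration and in blood vessels.

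Total counts per library were 73243315 to 82364863 in mutant rapamycin, 51692772 to 79553529 in WT rapamycin, 69693340 to 77584080 in mutant vehicle and 74395349 to 77680617 in WT vehicle libraries. All 58 members passed the filter on low counts in both fits. Levels are given as CPM, the counts scaled to a common library size after TMM normalisation, and are compared only within a gene because gene lengths were not used here. Reads were not examined for the mcr mutation, so an RNA level alone does not settle the genotype of a library. The gene apc itself (ENSDARG00000058868) was compared by its RNA level with the genotype labels. It had 96.7, 102 and 73.2 CPM in mutant vehicle libraries 1 to 3, against 127, 127 and 128 CPM in WT vehicle libraries (log2 fold change −0.49, standard error, SE, 0.12, adjusted p = 0.0153). In rapamycin it had 95.1, 77.2 and 76.8 CPM in mutant libraries, against 132, 137 and 63.9 CPM in WT libraries. The log2 fold change of apc there was −0.42 (SE 0.24, adjusted p = 0.264 by edgeR), which did not pass. The last of these WT values lies below every mutant value, and so goes against the label of that library by the level of this gene alone. That library is called the library labelled WT rapamycin replicate 3 throughout.

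The library labelled WT rapamycin replicate 3 also stood apart for the guidance genes. It held the lowest of all 12 values for 28 of 58 members (48.3%), where it held the lowest value of 28.3% of all genes tested. Its members lay at a median log2 level of −0.70 relative to the mean of WT vehicle libraries, against −0.03 over all genes. WT rapamycin replicate 2, the library with the fewest counts, held the highest value for 23 members (39.7%) and for 15.7% of all genes. Other measures of the library labelled WT rapamycin replicate 3 did not all lie on 1 side. Its summed CPM over the retina list was 198, against 60.7 to 86.9 in mutant libraries of both treatments and 161 to 166 in WT vehicle libraries. Over the neuron list it was 1635, against 1071 to 1139 and 1418 to 1489. By these it lay beyond the WT vehicle libraries, away from the mutants. Without vsx1, the most abundant gene, its retina sum was 47.7. That lay within both the 33.1 to 48.9 of mutant rapamycin libraries and the 38.5 to 49.7 of WT vehicle libraries. Those ranges overlap, so the retina sum without vsx1 could not place the library on either side. Without tubb5, the most abundant gene of the neuron list, its neuron sum was 906. The WT vehicle libraries were then at 800.2 to 831 and the mutant rapamycin libraries at 626 to 687. Its sum over neural progenitors and radial glia was 1516, against 1061 to 1099 in WT vehicle libraries. Without fabp7a, the most abundant gene, that sum was 458, against 418 to 494. Its neural crest sum of 217 lay above the mutant libraries but below the 236 to 260 of WT vehicle libraries. WT rapamycin replicates 1 and 2, at 234 and 221, also lay below that range. Its endothelium sum of 77.98 lay below every other library, at 112 to 126. Results in rapamycin are given with and without this library. The part of its tissue makeup or RNA quality in its low guidance gene values was not tested.

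**Figure D1:**
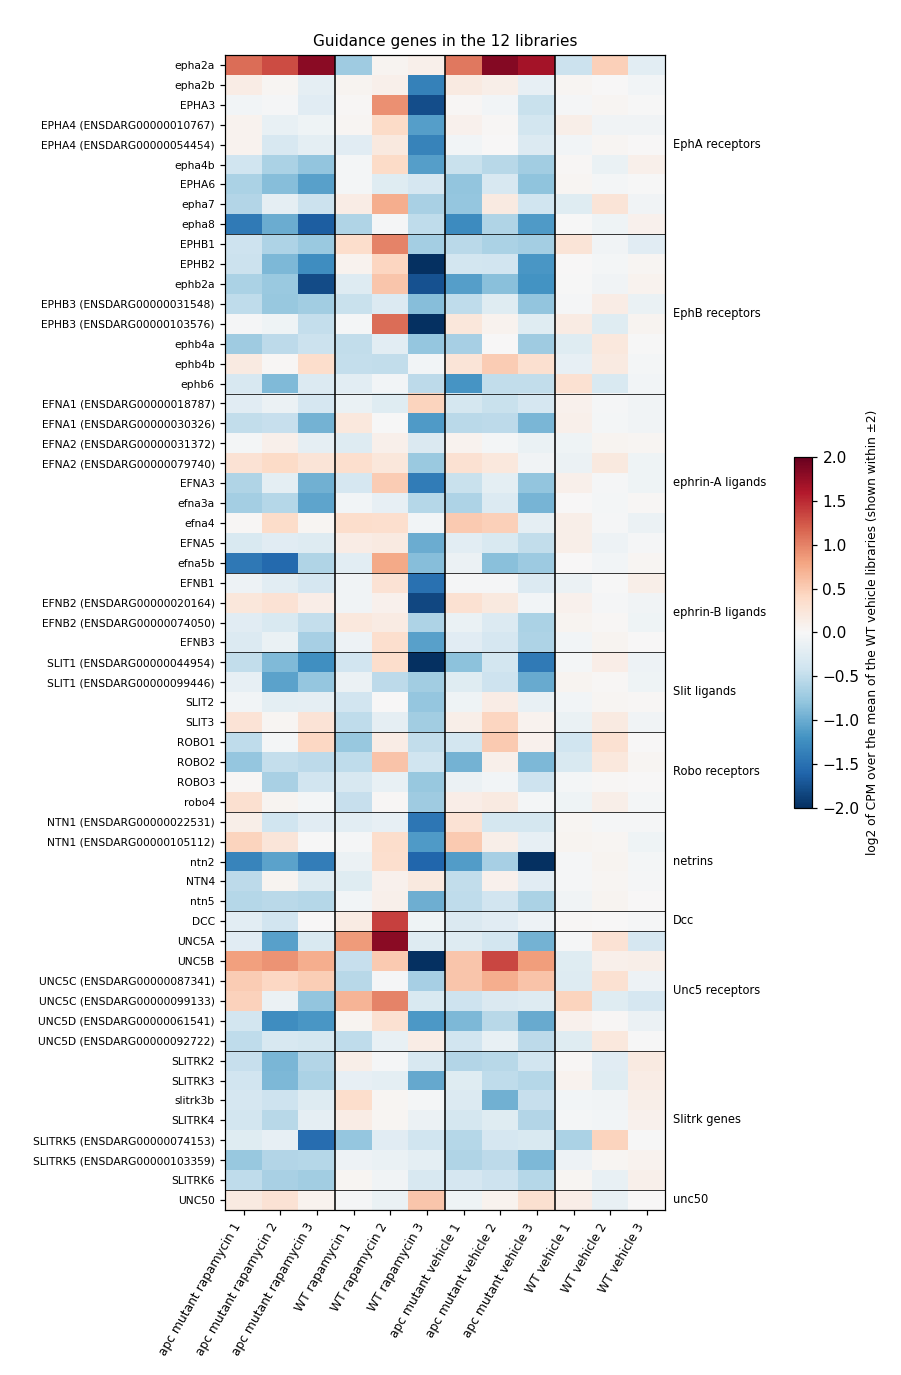
Heat map of the 58 members (rows, grouped by family) in the 12 libraries (columns, 3 per group), coloured by the log2 of CPM over the mean of the 3 WT vehicle libraries and shown within ±2. The epha2a row is high in all 6 mutant libraries, and the last WT rapamycin column is low for most receptors and ligands.

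Mutant larvae given vehicle had lower levels of many guidance genes and higher levels of a few. Of the 58 members tested, 18 were lower and 4 were higher in mutant than in WT larvae by edgeR's quasi-likelihood test at a Benjamini-Hochberg adjusted p under 0.05. That is 31.0% lower and 6.90% higher, against 13.6% lower and 14.8% higher among all 22335 genes tested. The median log2 fold change of the members was −0.36 and that of all genes was −0.00426, and 44 of 58 members were below 0. All 3 mutant libraries lay below all 3 WT libraries for 29 members and above them for 4, where 21.7% and 22.1% of all genes were so separated. A change of at least 2-fold was reached by epha2a, which was higher, and by ephb2a and ntn2, which were lower, where 7.95% of all genes passed both thresholds. In whole larvae, fewer cells of a type and less RNA per cell cannot be told apart.

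The receptors epha2a and UNC5B rose and epha4b, epha8, ephb2a, EFNA1 (ENSDARG00000030326), ntn5 and SLITRK5 (ENSDARG00000103359) fell whichever of the 6 vehicle libraries was left out. The other 14 of the 22 calls were lost in at least 1 such fit. The number of lower members was 6 without WT vehicle replicate 1, 10 without replicate 2 and 9 without replicate 3, and the number of higher members was 2 without WT vehicle replicate 1 and 2 without replicate 3. Lower calls over all genes fell as well, from 3028 of 22335 to 2013 of 22598, 2068 of 22622 and 1802 of 22588. Higher calls over all genes fell from 3305 to 2468 without WT vehicle replicate 1 and to 2237 without replicate 3. Members past 2-fold numbered 5 without mutant vehicle replicate 2 and 1 without mutant vehicle replicate 3. Over all genes the first fit had 1008 higher and 970 lower past 2-fold, and the second 821 and 723. These fits with a library left out had no term for replicate. With replicates as blocks and all 6 vehicle libraries, 24 were lower and 5 higher, where 18.2% and 18.3% of all genes were called. None of the 22 calls was lost with the blocks. With all 12 libraries in one model, which takes its spread from the WT rapamycin group too, 4 were lower (epha8, EPHA6, SLITRK5 and SLITRK6) and 2 higher (epha2a and UNC5C, ENSDARG00000087341). Of all 22841 genes that model called 1685 lower and 2059 higher. In that model the share of lower members was not above that of all genes. Without the Slitrk genes and unc50, 15 of 50 were lower and 4 higher, with a median of −0.32.

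**Figure D2:**
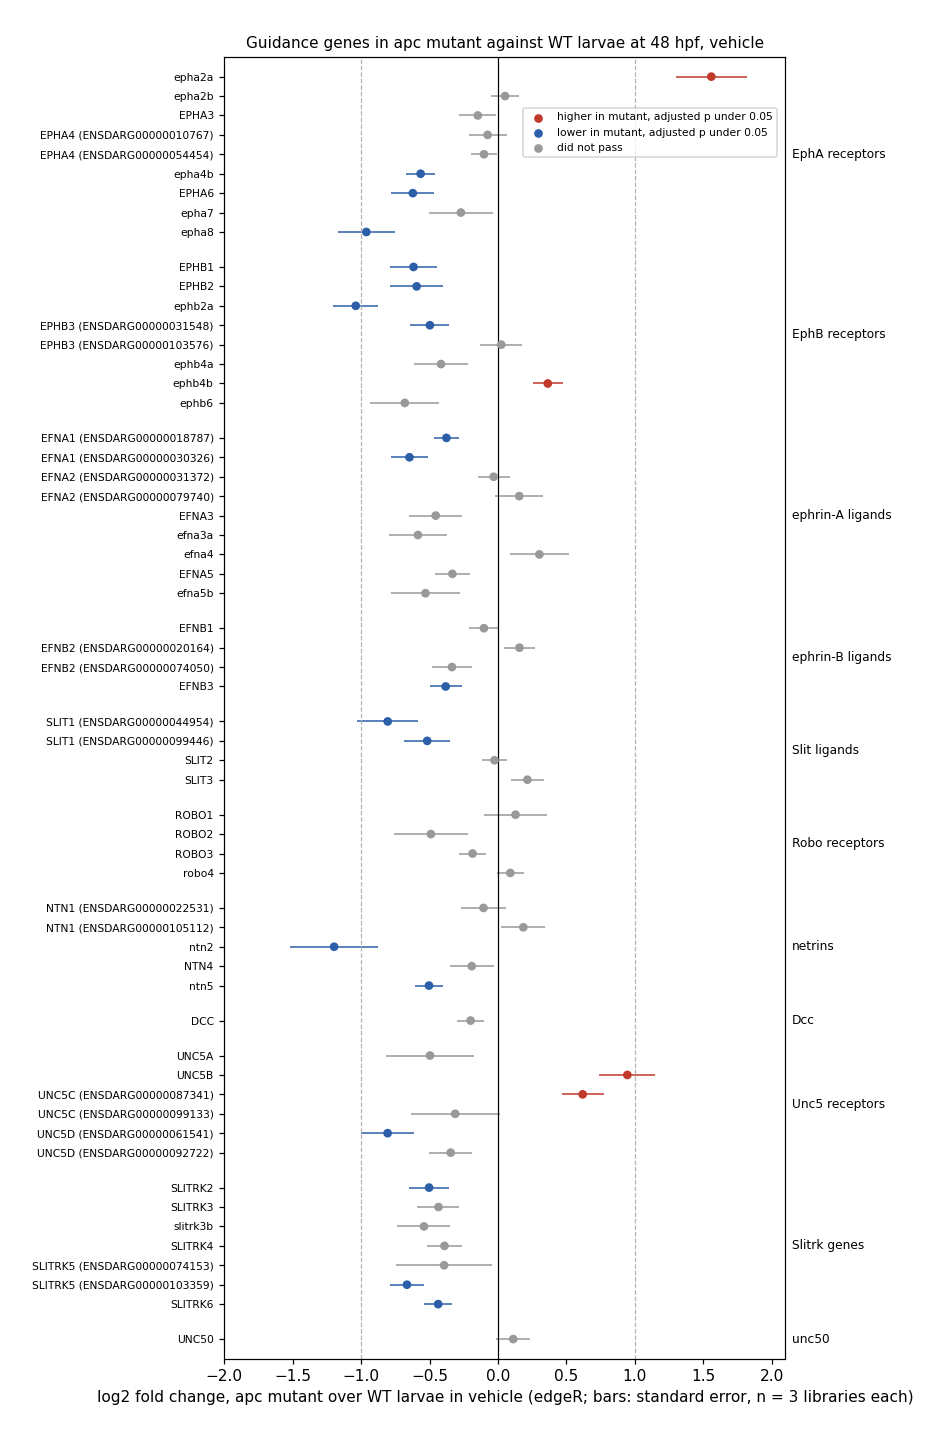
Log2 fold change of each of the 58 members, mutant over WT larvae in vehicle (points, with the standard error as bars, n = 3 libraries per group), grouped by family. Red points are the 4 members higher and blue points the 18 lower at an adjusted p under 0.05, and dashed lines mark a 2-fold change. The largest rise was that of epha2a at 1.56 and the largest fall that of ntn2 at −1.20.

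The counts by family below stand against 13.6% of all genes lower and 14.8% higher, and the families are small. Among the 9 EphA receptors, epha2a rose while epha4b, epha8 and EPHA6 fell, and 5 did not pass. The receptor epha2a (ENSDARG00000017354), prominent in epithelia of mammals, had 33.7, 58.3 and 51.8 CPM in mutant vehicle libraries 1 to 3, against 12.1, 22.7 and 14.1 CPM in WT vehicle libraries. Every mutant library lay above every WT library, and within each replicate number the mutant value was the higher one. Its log2 fold change was 1.56 (SE 0.26, adjusted p = 0.00242), a 2.95-fold rise. The second copy, epha2b, did not pass, with a log2 fold change of 0.05 (SE 0.10, adjusted p = 0.766).

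The EphA receptors that fell did so by less. Of these, epha8 (ENSDARG00000023609) had 0.983, 1.55 and 1.07 CPM in mutant vehicle libraries, against 2.33, 2.20 and 2.499 CPM in WT vehicle libraries, and was 1.95-fold lower (log2 fold change −0.96, SE 0.21, adjusted p = 0.00896). For epha4b (ENSDARG00000011600) the values were 11.2, 10.5 and 9.43 CPM in mutant libraries, against 15.6, 14.0 and 16.4 CPM in WT libraries, with a log2 fold change of −0.57 (SE 0.11, adjusted p = 0.0047). EPHA6 (ENSDARG00000022971) had 2.86, 3.97 and 2.83 CPM in mutant libraries, against 5.12, 4.82 and 4.94 CPM in WT libraries, with a log2 fold change of −0.62 (SE 0.16, adjusted p = 0.0181). Groups did not overlap for any of the 3. The call for EPHA6 was lost without mutant vehicle replicate 1 or 3 or without any WT vehicle library, with adjusted p up to 0.0659. EphA4 is a receptor for ephrins of both classes, and its other genes, EPHA4 (ENSDARG00000010767) and EPHA4 (ENSDARG00000054454), had log2 fold changes of −0.08 and −0.10 and did not pass.

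Among the 8 EphB receptors, 4 fell and 1 rose. The receptor ephb2a (ENSDARG00000037373) had 1.35, 1.63 and 1.27 CPM in mutant vehicle libraries 1 to 3, against 2.91, 2.77 and 3.07 CPM in WT vehicle libraries. All mutant values lay well below all WT values, and the gene was 2.06-fold lower (log2 fold change −1.04, SE 0.17, adjusted p = 0.00197). The gene listed as EPHB2 had 7.81, 7.79 and 4.51 CPM in mutant libraries, against 10.2, 9.80 and 10.4 CPM in WT libraries, with a log2 fold change of −0.60 (SE 0.19, adjusted p = 0.0472). EphB2 guides commissural and retinal axons in the mouse. EPHB1 and EPHB3 (ENSDARG00000031548) fell by 0.62 and 0.50 on the log2 scale, with adjusted p of 0.0283 and 0.0293. The calls for EPHB2, EPHB1 and EPHB3 were each lost in 3 to 5 of the 6 fits that left out 1 library, with adjusted p up to 0.135, 0.116 and 0.12. EPHB2 lost its call without any 1 of the WT vehicle libraries, EPHB1 without WT vehicle replicate 1 or 2 or any mutant vehicle library, and EPHB3 without any WT vehicle library or without mutant vehicle replicate 1 or 3.

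EphB4 is the receptor through which veins answer arterial ephrin-B2. Its copy ephb4b had 25.7, 30.4 and 26.8 CPM in mutant vehicle libraries, against 19.2, 24.2 and 20.9 CPM in WT vehicle libraries, a log2 fold change of 0.36 (SE 0.11, adjusted p = 0.0352). The 3 mutant libraries lay above the 3 WT libraries, although the gap between the groups was small, and the call was lost without mutant vehicle replicate 2 or 3 or WT vehicle replicate 1 or 3 (adjusted p up to 0.128). The other copy, ephb4a, had 11.4, 18.3 and 11.03 CPM in mutant libraries, against 15.4, 20.9 and 18.1 CPM in WT libraries, and these ranges overlapped. Replicate 2 was the highest library of each genotype for both copies. Without a term for replicate ephb4a did not pass (log2 fold change −0.42, adjusted p = 0.153), and with replicates as blocks it was lower (−0.44, adjusted p = 0.0104). EPHB3 (ENSDARG00000103576) and ephb6 had log2 fold changes of 0.02 and −0.68 and did not pass.

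Of the 13 ephrin ligands, 3 were lower in mutant larvae and none was higher, where 28.4% of all genes were called in either direction. Both genes named EFNA1, an ephrin-A ligand, fell. EFNA1 (ENSDARG00000030326) had 5.70, 5.74 and 4.41 CPM in mutant vehicle libraries, against 8.85, 8.04 and 7.90 CPM in WT vehicle libraries, with a log2 fold change of −0.65 (SE 0.13, adjusted p = 0.00697). EFNA1 (ENSDARG00000018787) had 11.1, 10.5 and 11.2 CPM in mutant libraries, against 15.04, 14.0 and 13.5 CPM in WT libraries, with a log2 fold change of −0.38 (SE 0.09, adjusted p = 0.0155). Neither pair of groups overlapped, and the second call was lost without WT vehicle replicate 1 (adjusted p = 0.0676). The other 7 ephrin-A genes ranged in log2 fold change from −0.59 (efna3a, adjusted p = 0.0714) to 0.30 (efna4, adjusted p = 0.34). EFNA5, the ligand that patterns the retinal map of the midbrain, did not pass without a term for replicate (−0.33, adjusted p = 0.0845) and was lower with replicates as blocks (adjusted p = 0.0495).

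Among the 4 ephrin-B genes, EFNB3 had 9.53, 8.90 and 7.31 CPM in mutant vehicle libraries, against 10.7, 11.6 and 11.2 CPM in WT vehicle libraries. Its groups did not overlap and its log2 fold change was −0.38 (SE 0.12, adjusted p = 0.0396), a call that stood in 1 of the 6 fits that left out a library, the one without mutant vehicle replicate 1. The highest adjusted p in these fits was 0.132. EFNB2 (ENSDARG00000020164), 1 of the genes of the arterial ligand ephrin-B2, had 17.0, 15.8 and 13.3 CPM in mutant libraries, against 14.6, 13.6 and 13.1 CPM in WT libraries. These ranges overlapped, and neither this gene (log2 fold change 0.16, adjusted p = 0.341) nor EFNB2 (ENSDARG00000074050; −0.34, adjusted p = 0.128) nor EFNB1 (−0.10, adjusted p = 0.543) passed.

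Of the 4 Slit genes, both genes named SLIT1 fell. SLIT1 (ENSDARG00000044954) had 6.91, 9.37 and 4.55 CPM in mutant vehicle libraries, against 11.8, 13.3 and 11.4 CPM in WT vehicle libraries, and was 1.75-fold lower (log2 fold change −0.81, SE 0.22, adjusted p = 0.0251). SLIT1 (ENSDARG00000099446) had 25.3, 22.4 and 14.9 CPM in mutant libraries, against 31.1, 30.3 and 28.1 CPM in WT libraries, with a log2 fold change of −0.52 (SE 0.17, adjusted p = 0.0486). For both genes mutant replicate 3 was the lowest library and the groups did not overlap. Both calls were lost without any 1 of the WT vehicle libraries, the first also without mutant vehicle replicate 1 and the second also without mutant vehicle replicate 2, with adjusted p up to 0.0861 and 0.127.

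Neither of the other Slits passed. SLIT2 had 39.5, 46.7 and 37.7 CPM in mutant vehicle libraries, against 40.3, 43.0 and 42.8 CPM in WT vehicle libraries (log2 fold change −0.03, SE 0.09, adjusted p = 0.875). SLIT3 had 54.0, 66.6 and 52.02 CPM in mutant libraries, against 45.1, 56.3 and 47.3 CPM in WT libraries. SLIT3 was the higher one in the mutant at each replicate number, although the ranges overlapped. It did not pass without a term for replicate (log2 fold change 0.21, adjusted p = 0.222) and was higher in mutant larvae with replicates as blocks (0.21, adjusted p = 0.0423).

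None of the 4 Robo receptors passed in vehicle by edgeR, and none had an unadjusted p under 0.05. With DESeq2 no Robo receptor passed either. ROBO3, which lets commissural axons cross the midline, had 44.1, 45.9 and 35.7 CPM in mutant vehicle libraries, against 46.2, 48.7 and 48.1 CPM in WT vehicle libraries (log2 fold change −0.19, SE 0.10, adjusted p = 0.211). ROBO2, the receptor that steers retinal axons in zebrafish, had 4.50, 9.32 and 4.63 CPM in mutant libraries, against 7.03, 10.03 and 8.90 CPM in WT libraries, which overlapped. Its log2 fold change was −0.49 (adjusted p = 0.222), and −0.55 with replicates as blocks, where it was lower (adjusted p = 0.0195). ROBO1 and the endothelial receptor robo4 had log2 fold changes of 0.13 and 0.09.

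Of the 5 netrins, ntn2 and ntn5 fell. For ntn2 (ENSDARG00000076748) the values were 1.47, 2.02 and 0.68 CPM in mutant vehicle libraries, against 3.14, 3.32 and 3.10 CPM in WT vehicle libraries. The WT libraries agreed closely, the mutant libraries all lay below them and mutant replicate 3 was the lowest. The gene was 2.29-fold lower (log2 fold change −1.20, SE 0.32, adjusted p = 0.0222), and its call was lost without mutant vehicle replicate 1 or without any 1 of the WT vehicle libraries, with adjusted p up to 0.0651. For ntn5 (ENSDARG00000036422) the values were 8.96, 9.80 and 8.24 CPM in mutant libraries, against 12.1, 13.3 and 12.9 CPM in WT libraries, with a log2 fold change of −0.50 (SE 0.10, adjusted p = 0.00659). Netrin-1 is the floor plate attractant of commissural axons. Its genes, NTN1 (ENSDARG00000022531) and NTN1 (ENSDARG00000105112), had log2 fold changes of −0.11 (SE 0.16) and 0.18 (SE 0.16) and did not pass, nor did NTN4, a netrin of basement membranes (−0.19, SE 0.16).

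The netrin receptors moved in both directions. DCC, the attractive receptor, had 7.95, 8.37 and 9.12 CPM in mutant vehicle libraries, against 9.85, 9.80 and 9.58 CPM in WT vehicle libraries. These groups were apart but the difference was small (log2 fold change −0.20, SE 0.10, adjusted p = 0.174). Of the 6 Unc5 receptors, which mediate repulsion, 2 rose and 1 fell, and the others did not pass. Among the others, UNC5C (ENSDARG00000099133) had a log2 fold change of −0.31 (SE 0.33, adjusted p = 0.529). UNC5D (ENSDARG00000092722) had −0.35 (SE 0.16, adjusted p = 0.142), and the groups overlapped for both genes.

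UNC5B (ENSDARG00000033327), known from endothelial tip cells of the mouse, had 5.53, 9.50 and 6.67 CPM in mutant vehicle libraries, against 3.18, 4.02 and 4.06 CPM in WT vehicle libraries, a 1.93-fold rise (log2 fold change 0.95, SE 0.20, adjusted p = 0.00877). UNC5C (ENSDARG00000087341) had 7.65, 8.58 and 7.76 CPM in mutant libraries, against 4.35, 6.41 and 4.86 CPM in WT libraries, with a log2 fold change of 0.62 (SE 0.15, adjusted p = 0.0162). UNC5D (ENSDARG00000061541) had 0.955, 1.21 and 0.889 CPM in mutant libraries, against 1.90, 1.82 and 1.64 CPM in WT libraries, with a log2 fold change of −0.81 (SE 0.20, adjusted p = 0.0151). None of the 3 pairs of groups overlapped. The UNC5C call was lost without WT vehicle replicate 1 or 3 (adjusted p up to 0.0739) and the UNC5D call without WT vehicle replicate 1 or 2 (adjusted p up to 0.0568). UNC5A, at 0.399, 0.371 and 0.249 CPM in mutant libraries and 0.471, 0.585 and 0.382 CPM in WT libraries, was among the members with the fewest reads and did not pass (log2 fold change −0.50, SE 0.33).

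**Figure D3:**
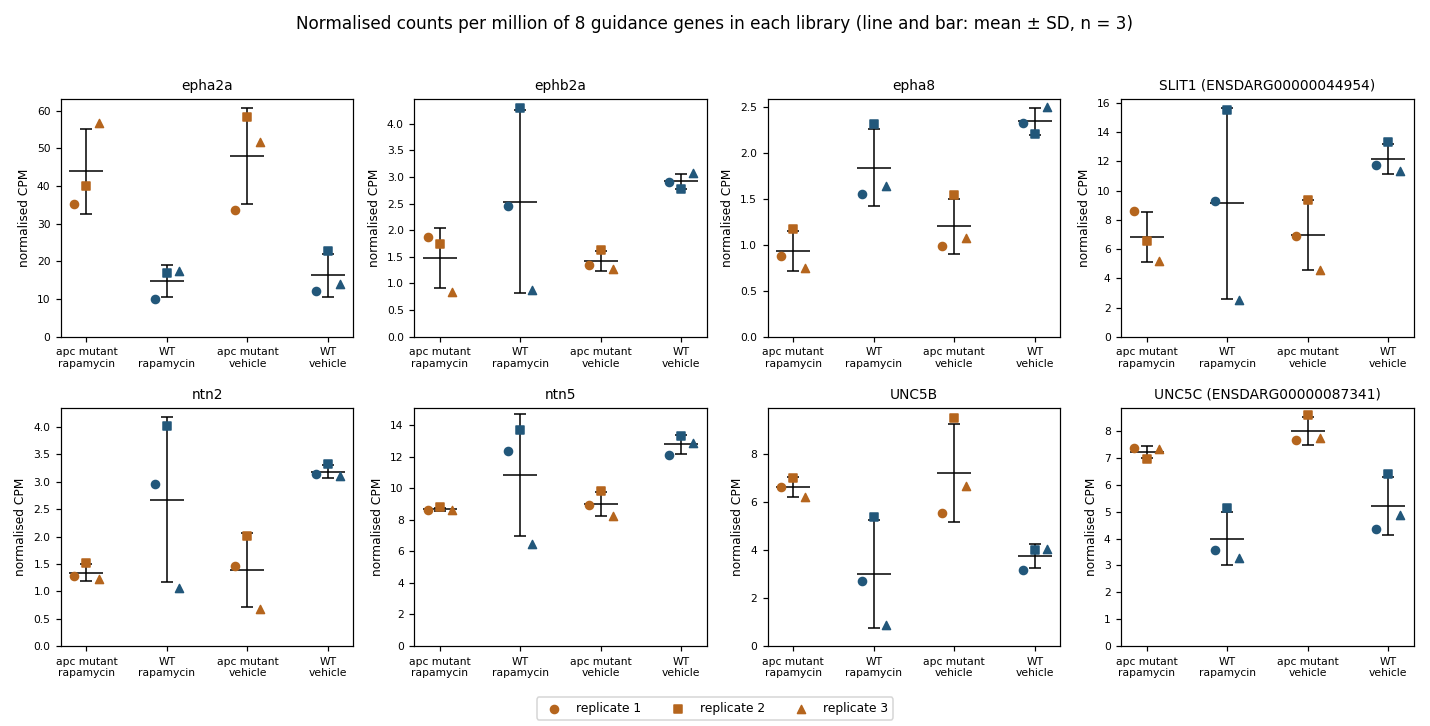
CPM of 8 members in the 12 libraries, by group (mutant rapamycin, WT rapamycin, mutant vehicle, WT vehicle), with marker shapes for replicate numbers and the mean ± SD of each group as line and bar (n = 3). All 8 were picked among members that passed in vehicle, and there the mutant and WT points do not overlap in any panel. The WT rapamycin points spread widely for ephb2a, SLIT1, ntn2, ntn5 and UNC5B.

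The Slitrk genes encode neuronal membrane proteins with leucine-rich repeats that act at synapses and do not bind as Slits. All 7 had a log2 fold change below 0 in vehicle, between −0.67 and −0.39, and 3 passed. SLITRK5 (ENSDARG00000103359) had 5.49, 5.80 and 4.50 CPM in mutant vehicle libraries, against 7.76, 8.53 and 8.74 CPM in WT vehicle libraries (log2 fold change −0.67, SE 0.13, adjusted p = 0.00502). SLITRK6 (ENSDARG00000098769) had 16.4, 15.6 and 13.9 CPM in mutant libraries, against 21.2, 18.7 and 22.3 CPM in WT libraries (−0.44, SE 0.10, adjusted p = 0.0136), and SLITRK2 fell by 0.50 on the log2 scale (adjusted p = 0.0333). The groups were apart for all 3. The SLITRK6 call was lost without WT vehicle replicate 1 or 3 (adjusted p up to 0.0712) and the SLITRK2 call without mutant vehicle replicate 1 or 2 or WT vehicle replicate 1 or 3 (up to 0.138). With replicates as blocks SLITRK3, slitrk3b and SLITRK4 also passed, with log2 fold changes of −0.43, −0.56 and −0.40 and adjusted p of 0.0333, 0.0304 and 0.0405. The unrelated gene UNC50, known for receptor trafficking in C. elegans, had a log2 fold change of 0.11 (SE 0.12, adjusted p = 0.556).

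Markers of the tissues in which guidance genes are active also differed between mutant and WT larvae in vehicle. Over all genes, 13.6% were lower and 14.8% higher. Of 13 neuronal genes, 11 fell and 0 rose, with a median log2 fold change of −0.53, and their summed CPM was 1071 to 1139 in mutants against 1418 to 1489 in WT larvae. Of 8 genes of neural progenitors and radial glia 3 fell and 1 rose, with sums of 667 to 708 in mutants against 1061 to 1099 in WT larvae. That gap was set by fabp7a, a fatty acid binding protein of radial glia, at 281 to 298 CPM in mutants against 605 to 654 in WT larvae, and the other 7 genes overlapped, at 369 to 428 in mutants against 418 to 494 in WT larvae. The retina list had sums of 60.7 to 84.7 in mutants against 161 to 166 in WT larvae, with 3 of 6 genes lower and 1 higher. Here vsx1, a transcription factor of retinal bipolar cells, set the gap at 27.95 to 41.8 CPM in mutants against 111 to 125 in WT larvae, and the other 5 genes overlapped, at 32.7 to 42.8 in mutants against 38.5 to 49.7 in WT larvae. Of 5 neural crest genes TFAP2A and tfap2b fell, while SOX10, FOXD3 and crestin did not pass (log2 fold changes −0.17, −0.04 and −0.04), with sums of 169 to 183 in mutants against 236 to 260 in WT larvae. Without its most abundant gene, tubb5, the neuron list was still apart, at 639 to 725 in mutants against 800.2 to 831 in WT larvae.

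The hindbrain segment list (2 of 5 lower, 0 higher, sums of 34.6 to 36.5 in mutants against 37.7 to 43.4 in WT larvae) and the floor plate list (3 of 6 lower, 1 higher, 95.6 to 111 against 112 to 136) were also apart, but without their most abundant genes, hoxa2b and spon1b, both overlapped. The skeletal muscle list was apart with or without its most abundant gene, with 3 of 5 lower, none higher and sums of 22986 to 26861 in mutants against 28304 to 31386 in WT larvae. The endothelium list overlapped, at 117 to 121 in mutants against 118 to 126 in WT larvae, with 2 of 7 lower and 1 higher. No marker of any list was at 0 in any library. The part of these markers in the guidance gene differences was not tested.

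Partners of the same pathways were counted in vehicle against the 13.6% lower and 14.8% higher of all genes. Of 29 partners of netrins and Slits, 9 fell (31.0%) and 3 rose (10.3%), with a median log2 fold change of −0.19. The lowest p-values were those of nck1a, an adaptor that links receptors to actin (1.01, adjusted p = 0.000199), ntng2b, a membrane-anchored netrin-G (−1.18, adjusted p = 0.000883), dscamb, an adhesion receptor that also binds netrin (−1.0002, adjusted p = 0.000957), and RGMA, a repulsive ligand of neogenin (−0.70, adjusted p = 0.00113). Of 32 partners of Eph receptors and ephrins, 4 fell and 5 rose (28.1% in all, against 28.4% of all genes), with a median of −0.07. The leading genes were sdcbp2, a scaffold of the syntenin family (0.70, adjusted p = 0.00032), the GTPase rac1a (0.70, adjusted p = 0.00089), CHN1, a GTPase-activating protein for Rac that acts below EphA4 in the mouse (−0.62, adjusted p = 0.00195), and adam10a, a protease that sheds ephrins (0.50, adjusted p = 0.00225). Both lists were described by these counts alone.

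In larvae given rapamycin, fewer guidance genes passed between mutant and WT larvae than in the fit of the 6 vehicle libraries. Rapamycin was tested in the model of all 12 libraries, and in that model the vehicle comparison called 4 members lower and 2 higher. Of 58 members, 6 were lower (10.3%) and 4 higher (6.90%) in mutant larvae given rapamycin. These shares were near the 8.28% and 9.11% of all 22841 genes so called, which were themselves below the 13.6% and 14.8% of the vehicle fit. The median log2 fold change was −0.23, against −0.028 over all genes, and 39 members were below 0. Mutant libraries lay wholly below WT libraries for 7 members and wholly above for 6, where 13.7% and 15.3% of all genes were so separated. Lower were the receptors epha8, EPHA6 and UNC5A, and the Slitrk genes SLITRK2, SLITRK5 (ENSDARG00000103359) and SLITRK6. Higher were epha2a, ephb4b, SLIT3 and UNC5C (ENSDARG00000087341). The share of lower members thus rests in part on Slitrk genes, which belong to other families. At least 2-fold changes were those of epha2a and UNC5A, where 7.64% of all genes passed both thresholds. Without mutant rapamycin replicate 1 the members past 2-fold numbered 1, where 794 of 23077 genes were higher and 649 lower past 2-fold.

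Without the library labelled WT rapamycin replicate 3, 22 members were lower and 4 higher, where 13.6% and 15.1% of 23075 genes were called, and the median was −0.41. Of these, 10 were past 2-fold, where 9.39% of all genes were. The calls gained numbered 16, all lower, and none was lost. The library left out held the lowest value of all libraries for 28 of 58 members. Leaving it out raises the WT mean of those members and so favours lower calls. WT then rests on replicates 1 and 2 alone, and replicate 2 held the highest value for 23 members (39.7%). The calls gained are thus no separate support for lower levels. Leaving out any other rapamycin library took the count of lower members to between 1 and 3: it was 2 without mutant rapamycin replicate 1, 1 without replicate 2, 1 without replicate 3, 2 without WT rapamycin replicate 1 and 3 without WT rapamycin replicate 2. Over all genes, lower calls without mutant replicates 1 to 3 were 1168 of 23077, 1166 of 23080 and 1162 of 23079. Without WT replicates 1 and 2 they were 1604 of 23066 and 2045 of 23023. In each of these fits the share of lower members was below that of all genes. The count of higher members was 2 without mutant rapamycin replicate 3, where 1514 of 23079 genes were higher. With replicates as blocks 6 were lower and 6 higher, where 10.4% and 11.8% of all genes were called, and UNC5B (log2 fold change 1.29, adjusted p = 0.0357) and robo4 (0.49, adjusted p = 0.0337) were the 2 added.

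The libraries given vehicle and rapamycin are separate pools, so the genotype difference could be read a second time. All 18 members that fell in vehicle were below 0 in rapamycin, with a median log2 fold change of −0.50 (−0.61 in vehicle), and 5 of them passed. With 1 rapamycin library left out, SLIT1 (ENSDARG00000044954) reached up to 0.18 and EFNB3 up to 0.14. The same shares among all genes that fell or rose in vehicle were not computed, so whether this agreement is particular to the members is not known. Without the library labelled WT rapamycin replicate 3 the median of these 18 members was −0.71 and 14 passed, in a fit that removes a WT library low for many members. The 4 that rose in vehicle were all above 0, and 3 passed with or without that library. Libraries of the same replicate number deviated together across groups, so the readings share that variation.

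The receptor epha2a was also higher in mutant larvae given rapamycin. It had 35.2, 40.0 and 56.6 CPM in mutant rapamycin libraries, against 9.999, 16.9 and 17.5 CPM in WT rapamycin libraries, with no overlap (log2 fold change 1.57, SE 0.30, adjusted p = 0.00312). Here the library labelled WT rapamycin replicate 3 lay with the other WT libraries, and the value without it was 1.74 (adjusted p = 0.00313). UNC5C (ENSDARG00000087341) had 7.38, 6.95 and 7.33 CPM in mutant libraries, against 3.55, 5.12 and 3.29 CPM in WT libraries (0.86, SE 0.19, adjusted p = 0.00799). Both calls held with any 1 rapamycin library left out.

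UNC5B had 6.65, 7.02 and 6.21 CPM in mutant rapamycin libraries, against 2.73, 5.38 and 0.889 CPM in WT rapamycin libraries. Its groups did not overlap, but the WT values spread widely (log2 fold change 1.15, SE 0.44, adjusted p = 0.0971 by edgeR). DESeq2 did call UNC5B higher (adjusted p = 0.0367). By edgeR its log2 fold change was 0.74 without the library labelled WT rapamycin replicate 3 (adjusted p = 0.065) and 1.83 without WT rapamycin replicate 2 (adjusted p = 0.00552). The ligand SLIT3 was higher in mutant larvae. It had 59.6, 50.8 and 60.1 CPM in mutant libraries, against 34.9, 43.9 and 30.7 CPM in WT libraries (0.64, SE 0.15, adjusted p = 0.0121), and it stayed below an adjusted p of 0.05 in every fit that left out 1 rapamycin library but the one without mutant replicate 3 (adjusted p = 0.0529). The call for ephb4b (0.53, adjusted p = 0.0277) was lost without mutant replicate 1 or 3 or WT replicate 1 or 2 (adjusted p up to 0.129).

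Several members that fell in vehicle were split among the WT rapamycin libraries. For ephb2a the values were 1.88, 1.74 and 0.84 CPM in mutant rapamycin libraries, against 2.45, 4.29 and 0.872 CPM in WT rapamycin libraries, and the log2 fold change was −0.76 (adjusted p = 0.287) with, and −1.15 (adjusted p = 0.0164) without, the library labelled WT rapamycin replicate 3. For ntn2 they were 1.28, 1.51 and 1.23 CPM in mutant libraries, against 2.95, 4.02 and 1.06 CPM in WT libraries (−0.99, adjusted p = 0.145, and −1.36, adjusted p = 0.00995, without that library). For SLIT1 (ENSDARG00000044954) they were 8.62, 6.58 and 5.21 CPM in mutant libraries, against 9.30, 15.5 and 2.53 CPM in WT libraries (−0.42, adjusted p = 0.61, and −0.84, adjusted p = 0.0465). In each case the third WT value fell among or below the mutant values and the second was the highest of all.

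The members that fell in both treatments with all libraries were epha8, EPHA6 and the 3 Slitrk genes. In rapamycin, epha8 had 0.882, 1.18 and 0.746 CPM in mutant libraries, against 1.55, 2.32 and 1.64 CPM in WT libraries (log2 fold change −0.97, SE 0.26, adjusted p = 0.0213). EPHA6 had 3.18, 2.75 and 2.35 CPM in mutant libraries, against 4.83, 4.21 and 3.92 CPM in WT libraries (−0.65, SE 0.18, adjusted p = 0.0271). SLITRK5 (ENSDARG00000103359) had 4.92, 5.56 and 5.64 CPM in mutant libraries, against 7.76, 7.63 and 7.28 CPM in WT libraries (−0.49, SE 0.13, adjusted p = 0.0241). The groups were apart for each of them, with the third WT library on the WT side. These calls were nevertheless lost with 3 or 4 of the 6 rapamycin libraries left out 1 at a time: epha8 without mutant replicate 1 or 3 or WT replicate 2 (adjusted p up to 0.09), EPHA6 without mutant replicate 2 or 3 or WT replicate 1 (up to 0.108) and SLITRK5 without any 1 mutant library or WT replicate 1 (up to 0.101). SLITRK6 (−0.50, adjusted p = 0.0164) lost its call without mutant replicate 2 or 3 or WT replicate 1 (up to 0.0633), and SLITRK2 (−0.58, adjusted p = 0.0454) without any library but the one labelled WT rapamycin replicate 3 (up to 0.171).

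UNC5A passed in rapamycin and not in vehicle. It had 0.409, 0.225 and 0.387 CPM in mutant rapamycin libraries, against 0.861, 1.68 and 0.403 CPM in WT rapamycin libraries, from 18 to 32 counts in mutant and 24 to 79 in WT libraries. These ranges overlapped, since the library labelled WT rapamycin replicate 3 lay among the mutant ones. The log2 fold change was −1.51 (SE 0.46, adjusted p = 0.0415) with it and −1.86 (adjusted p = 0.00399) without it, and the call was lost without any 1 of the other 5 rapamycin libraries (adjusted p up to 0.148). The difference between its genotype effects in rapamycin and in vehicle was −1.02 (SE 0.65, adjusted p = 0.999909). A like pattern without a call by edgeR was that of DCC, at 8.39, 7.49 and 9.74 CPM in mutant libraries and 10.9, 25.1 and 9.22 CPM in WT libraries (log2 fold change −0.82, adjusted p = 0.0778). DESeq2 did call DCC lower (adjusted p = 0.0319). WT rapamycin replicate 2, the library with the fewest counts, held the highest value of both genes, and without it the log2 fold changes were −0.93 for UNC5A and −0.26 for DCC. DCC passed without WT rapamycin replicate 1 (−1.004, adjusted p = 0.0484) or without the library labelled WT rapamycin replicate 3 (−1.05, adjusted p = 0.00882).

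**Figure D4:**
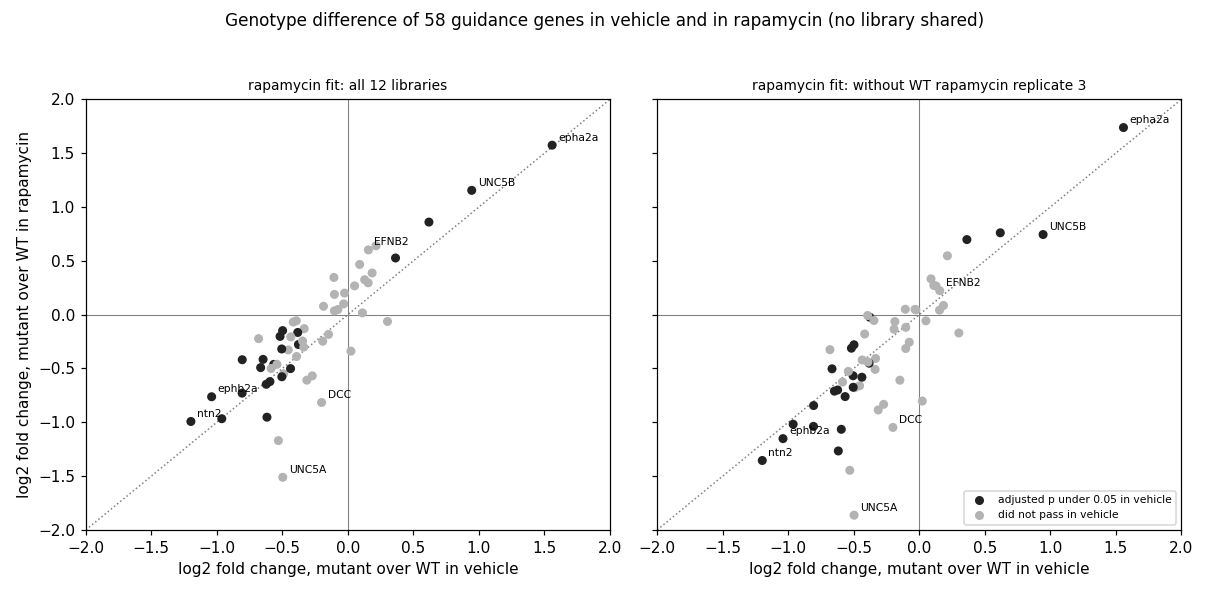
Log2 fold change of mutant over WT larvae in rapamycin (vertical) against that in vehicle (horizontal) for the 58 members, with all 12 libraries (left) and without the library labelled WT rapamycin replicate 3 (right). The dotted line marks equal values and dark points passed in vehicle. All 22 dark points keep their sign, and the 18 members that fell in vehicle have a median of −0.50 in rapamycin on the left and −0.71 on the right. The share of all genes that keep their sign was not computed.

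No guidance gene passed the test between rapamycin and vehicle. Against vehicle, 0 of 58 members passed in mutant larvae and 0 in WT larvae by edgeR, with 0 and 5 at an unadjusted p under 0.05, and DESeq2 called 0 in each. Of all 22841 genes, 0.0% were called in either genotype by edgeR. In mutant larvae the members had a median log2 fold change of −0.05, between −0.60 and 0.25. In WT larvae the median was −0.18, between −0.50 and 1.02, and without the library labelled WT rapamycin replicate 3 it was 0.03. With all libraries, the 5 members with an unadjusted p under 0.05 in WT larvae were SLIT3, EPHB3 (ENSDARG00000031548), ephb4a and ephb4b, which were lower, and UNC5A, which was higher in rapamycin. Without the library labelled WT rapamycin replicate 3, ephb4a left this group (unadjusted p = 0.121 by edgeR). DCC, EPHB1, EPHA3, EPHB3 (ENSDARG00000103576) and UNC5C (ENSDARG00000099133), all higher in rapamycin, then joined it, and none passed. The share of all genes at an unadjusted p under 0.05 was not counted.

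SLIT3 was the member of lowest p with all libraries, and ephb4b without the library labelled WT rapamycin replicate 3. SLIT3 had 34.9, 43.9 and 30.7 CPM in WT rapamycin libraries, against 45.1, 56.3 and 47.3 CPM in WT vehicle libraries, which did not overlap (log2 fold change −0.44, SE 0.15, adjusted p = 0.79). In mutant larvae it had 59.6, 50.8 and 60.1 CPM in rapamycin, against 54.0, 66.6 and 52.02 CPM in vehicle, which overlapped. The interaction of genotype and rapamycin was called for 0 of 58 members by edgeR and 0 by DESeq2, with 0 at an unadjusted p under 0.05, and for 0.0% of all genes. Without the library labelled WT rapamycin replicate 3, 5 members had an unadjusted p under 0.05 for the interaction, and 0 passed.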

How the data were processed

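RNA-seq of pooled whole zebrafish larvae was analysed from estimated counts per gene, which the authors deposited as whole numbers and did not scale. The submitters' processing notes name Salmon and GRCz10, and the study's methods name STAR, while counting versions are not given in the sources used here. Total counts per library are in the report, and their number limits the precision of low genes. Gene names came from the study's list for 1743 genes and from Ensembl for 21193, and 2966 had none. Members and gene lists were chosen with earlier results of these data known, and no list adjustment or set test was made.

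Counts were filtered with filterByExpr (minimum count 10), scaled by TMM and tested with edgeR 4.0.16 (quasi-likelihood, Benjamini-Hochberg, adjusted p under 0.05) in R 4.3.3 with limma 3.58.1. Mutant against WT in vehicle used the 6 vehicle libraries, and comparisons with rapamycin libraries used one model of all 12. The procedure was tested on simulated data. Per-library values were given for members past 2-fold and the adjusted threshold between genotypes, for the 12 further members of lowest p in vehicle, for any passing in rapamycin or the interaction, and for 1 member of each remaining family. Values of other members were given after they had been seen.

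Whether replicate numbers pair libraries was checked by correlating deviations from group means. The 18 same-numbered pairs had a mean r of 0.282 (lowest 0.139) and the 36 other pairs a mean of −0.14. Because the 3 deviations of a group sum to 0 for each gene, the second mean follows largely from the first. The main fits nevertheless had no term for replicate, and the block by replicate number was an alternative fit. Each result was also computed with DESeq2 1.42.0, with RLE or upper-quartile scaling, with no filter or at least 10 counts in every library, with a replicate block, with all 12 or only 6 libraries, with glmTreat against 2-fold, and with each library left out. A block without the library labelled WT rapamycin replicate 3 was added after seeing the data. Sequences, coordinates and gene lengths were not used here.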

Additional observations from a re-analysis of the deposited data

How the results depend on the processing

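Between genotypes in vehicle, with all 12 libraries in one model 2 members were higher (4 with the 6 vehicle libraries), 4 lower (18) and 1 past 2-fold (3). Of all 22841 genes that model called 2059 higher and 1685 lower. That model pools the spread of the WT rapamycin group. With glmTreat, which tests for a change beyond 2-fold, 0 passed in vehicle and 0 in rapamycin, with 1 at an unadjusted p under 0.05 in each. Of all genes glmTreat called 400 higher and 238 lower in vehicle, and 354 and 220 in rapamycin. Leaving out 1 library gave 2 to 4 higher, 6 to 19 lower and 1 to 5 past 2-fold. Over all genes these fits gave 2237 to 3579 higher and 1802 to 3283 lower.

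Between genotypes in rapamycin, DESeq2 called 10 lower (6 by edgeR) and 4 past 2-fold (2). Of all 22841 genes DESeq2 called 2371 lower (1892 by edgeR). With only the 6 rapamycin libraries 1 was higher (4), 0 were lower and 1 was past 2-fold. Of 22263 genes that fit called 984 higher and 692 lower. With a replicate block and without the library labelled WT rapamycin replicate 3, an alternative chosen after seeing the data, 7 were higher, 25 lower and 7 past 2-fold. Of 23075 genes that fit called 4261 higher and 3809 lower. Leaving out 1 library gave 2 to 5 higher, 1 to 22 lower and 1 to 10 past 2-fold. Over all genes these fits gave 1514 to 3481 higher and 1162 to 3136 lower. The cause of these shifts was not tested. With the replicate block alone, 5 were higher and 24 lower in vehicle, and 6 were higher and 6 lower in rapamycin, and the block changed no call of a member other than those named in the report.

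Among the members checked, each that changed sign had not passed in the treatment where its sign changed. SLIT1 (ENSDARG00000044954) and EFNB3 had passed in vehicle, where they kept their sign. Leaving out 1 library, the log2 fold change in rapamycin ranged from −0.84 to 0.18 for SLIT1 (ENSDARG00000044954), from −0.45 to 0.14 for EFNB3, from −0.13 to 0.22 for ROBO3 and from −0.14 to 0.27 for UNC50, and in vehicle from −0.0092 to 0.20 for UNC50. ROBO3 was −0.0275 with the block and without that library, and UNC50 was −0.0516 with upper-quartile scaling. RLE scaling and both other filters changed the call or sign of 0 of the 56 values checked, and upper-quartile scaling lost 1 call. With 3 pools per group and a wide spread among the WT rapamycin libraries, differences in rapamycin are known less firmly than those in vehicle.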
